A study of Mus musculus with 8 samples.

Results

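A set of 10 genes that encode steroid-metabolizing reductases and hydroxysteroid dehydrogenases, together with the steroid hydroxylase gene Cyp17a1, was followed in mouse liver after deletion of Arid1a. They were picked by symbol out of 35638 genes in the table, and all 10 were present: Srd5a1, Srd5a2, Srd5a3, Hsd3b2, Hsd3b3, Hsd3b5, Hsd11b1, Hsd17b2, Akr1c6 and Cyp17a1. The choice was made with the KO and WT values of these genes known, so their differences between the groups are given as a description, and the calls of the genome-wide fit for them support nothing further. Frozen liver of mice with a mixed C57/B6 and 129 background, taken at postnatal day 90, was the source of the RNA. The KO group (n = 4) carried Arid1a Fl/Fl alleles together with Alb-cre, and the WT group (n = 4) carried the same Arid1a Fl/Fl alleles without Cre. Alb-cre drives the recombinase from the albumin promoter, which is active in hepatocytes. Whether the other cells of the liver keep the gene was not measured here. The ARID1A protein is part of SWI/SNF, which remodels chromatin, and the series title puts the question of what its loss does to lipogenesis and fatty acid oxidation in liver. Whether each replicate is an animal of its own is not stated in the labels, so p-values cover the spread among the sequenced samples, and that spread may be technical.

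Steroid hormones are made mainly in the adrenal glands and gonads, and the liver clears, inactivates or reactivates them. Reductases remove the double bond of the steroid A ring, hydroxysteroid dehydrogenases interconvert hydroxyl and keto groups, and the products are then hydroxylated by cytochromes P450 and conjugated to sulfate or glucuronic acid. Many of these enzymes differ between male and female mouse liver under the control of the growth hormone pattern. Hsd3b5 is known as a gene of male mouse liver.

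Expression was given as FPKM (fragments per kilobase of transcript, scaled to the size of the library). Depth, estimated from the spacing of low values, was 14400000 ± 770000 reads in KO and 13000000 ± 560000 reads in WT (SD, n = 4 each), or a whole multiple of these. Arid1a was at 2.70, 2.86, 3.46 and 2.59 FPKM in KO 1 to KO 4 and at 5.16, 8.38, 3.998 and 4.10 FPKM in WT 1 to WT 4, without overlap. Of all genes tested 3.18% were lower in KO without overlap. The change of Arid1a on the scale of log2(FPKM + 1) was -0.67 ± 0.23 (SE), and it was not called (limma adjusted p = 0.316). Xist, the RNA of the inactive X chromosome, lay between 61.4 and 93.3 FPKM in KO and between 53.5 and 95.6 FPKM in WT, and the Y-linked genes Ddx3y, Eif2s3y, Kdm5d and Uty were at 0.0527 FPKM or less in every library. The labels do not give the sex. All 8 hepatocyte markers were tested and none passed the threshold in the genome-wide fit. Their summed level was 30842 to 45435 FPKM in KO and 27339 to 38883 FPKM in WT. Macrophage markers summed to 87.2, 20.1, 145 and 102 FPKM in KO 1 to KO 4 and to 6.56, 8.12, 11.6 and 14.5 FPKM in WT 1 to WT 4, with all 9 tested markers higher in KO without overlap, against 3.05% of all genes tested, and 0 of the 9 past the threshold. Sinusoidal endothelial markers summed to 6.87 to 19.3 FPKM in KO and 1.74 to 5.15 FPKM in WT, and stellate cell markers to 9.43 to 23.4 FPKM in KO and 1.90 to 6.18 FPKM in WT. Cholangiocyte markers summed to 0.527 to 6.84 FPKM in KO and 0.269 to 0.792 FPKM in WT. In KO that sum was mostly Spp1, at 0.512 to 6.72 FPKM, against 0 to 0.658 FPKM in WT, with overlapping groups. Sox9, of the same list, was lower in every KO library (0.0157 to 0.123 FPKM) than in any WT library (0.134 to 0.462 FPKM). Krt7, Krt19, Epcam and Cftr were at 0.11 FPKM or less in every library. Lymphocyte markers summed to 0.310 to 1.30 FPKM in KO and 0.016 to 0.290 FPKM in WT. Of the genes of adrenal and gonadal steroid synthesis, Cyp11a1, Cyp11b1, Cyp19a1 and Nr5a1 were at 0.0023 FPKM or less throughout. Cyp21a1 was at 0.139 FPKM or less, and Star was at 0.0993 to 0.577 FPKM over the 8 libraries.

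Srd5a1 encodes the type 1 steroid 5-alpha-reductase, the liver isoenzyme, which reduces testosterone, progesterone and corticosterone. It was at 23.96, 14.3, 18.9 and 14.6 FPKM in KO 1 to KO 4 and at 5.21, 4.85, 6.715 and 3.74 FPKM in WT 1 to WT 4. The lowest KO library therefore stood above the highest WT library, and the 4 KO values differed among themselves by 1.67 times. The means were 17.9 ± 4.51 FPKM in KO and 5.13 ± 1.23 FPKM in WT (SD, n = 4 each). On the scale of log2(FPKM + 1) the change was 1.62 ± 0.22 (SE). Its limma adjusted p, taken over all 11266 genes tested, was 0.0136, at rank 28. Srd5a1 was the only one of the 10 genes past the threshold of 0.05, which 0.763% of all genes tested passed in either direction and 0.408% passed as higher in KO. A gene was higher in KO without overlap in 3.05% of all cases tested. Its call was kept in 7 of 8 fits that left out a library and was lost without KO 3 (log2 change 1.59, limma adjusted p = 0.0556). In bulk liver, more cells of a type and more RNA per cell cannot be told apart. The summed macrophage, endothelial and stellate markers were, like Srd5a1, higher in every KO library than in any WT library. Summed lymphocyte markers were so only narrowly, at 0.310 FPKM in KO 2 against 0.290 FPKM in WT 3. In WT that sum was Ptprc alone, and the groups of Ptprc overlapped (0.127 FPKM in KO 2). Endothelial markers summed to 19.3, 6.87, 17.7 and 14.2 FPKM in KO 1 to KO 4, the same order of libraries as Srd5a1. In WT the orders differed. There the endothelial sums were 1.74, 4.12, 5.15 and 4.83 FPKM in WT 1 to WT 4, lowest in WT 1, whereas Srd5a1 was lowest in WT 4. KO 2, the lowest KO library for Srd5a1, was also the lowest for macrophage markers, whereas KO 3 was the highest for these and KO 1 for Srd5a1. Stellate markers summed to 23.4, 13.0, 9.43 and 16.7 FPKM in KO 1 to KO 4, highest in KO 1 and lowest in KO 3. The part of these cells in the level of Srd5a1 was not tested.

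**Figure D1:**
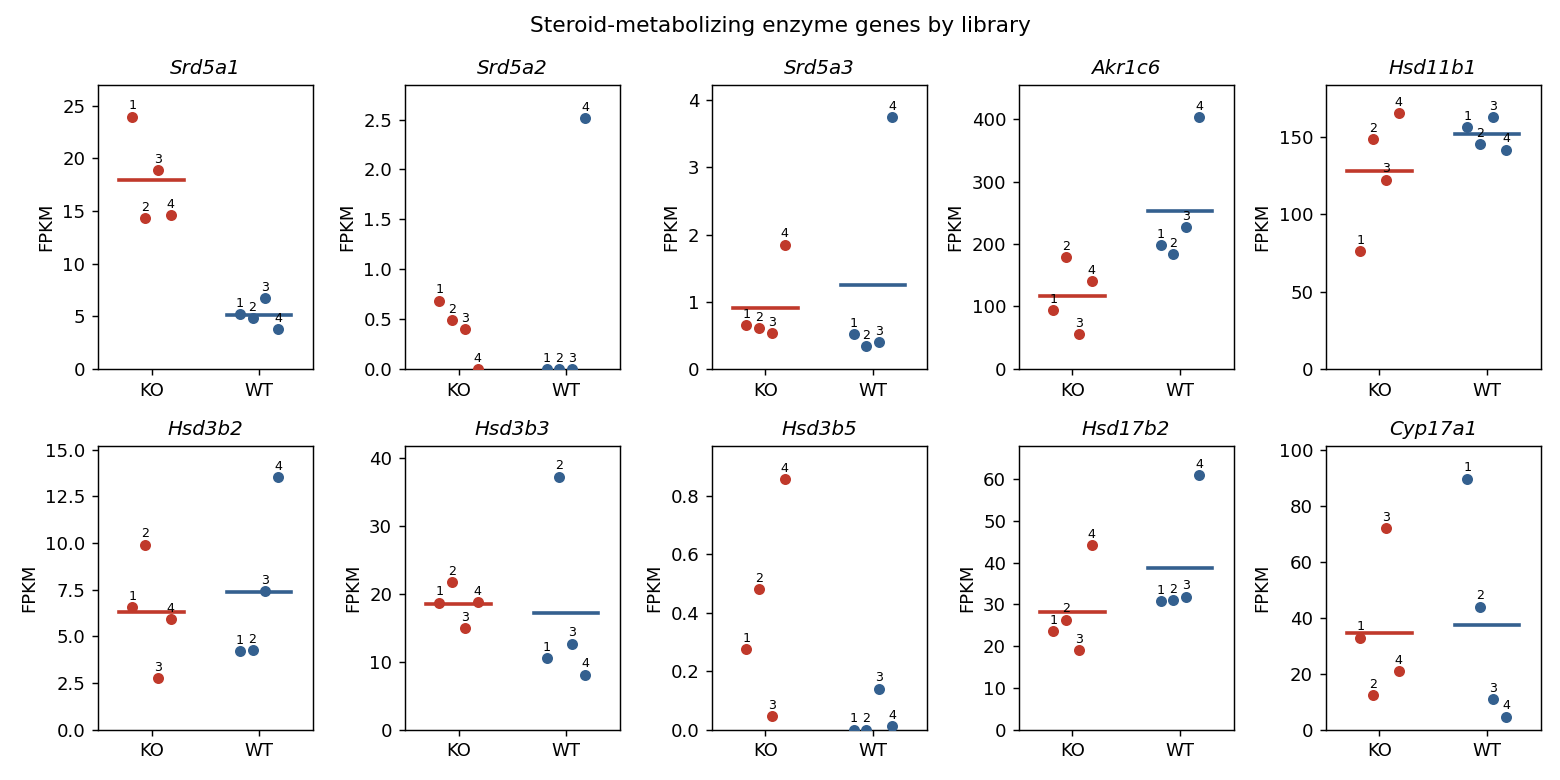
FPKM (linear axes starting at 0) of the 10 genes in 4 KO and 4 WT libraries, each point 1 library with its replicate number and each horizontal line the group mean, which is left out for Srd5a2 and Hsd3b5 because libraries are listed at 0. For Srd5a1 all KO points (14.3 to 23.96 FPKM) lie above all WT points (3.74 to 6.715 FPKM), for Akr1c6 all KO points (56.3 to 178 FPKM) lie below all WT points (183 to 404 FPKM), and for the other 8 genes the groups overlap.

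The Srd5a1 gene (ENSMUSG00000021594) lies on chromosome 13 at 69573449 to 69611442, minus strand, in GENCODE M21 of GRCm38. The promoter of this gene, with the most positive log2 change of the 10, is shown beside that of Akr1c6, with the most negative, to let the base composition of the pair be compared. Both are RefSeq windows of GRCm38.p6, read 5′ to 3′ on the gene's strand, with matches to the searched motifs in capitals. Srd5a1 is chr13:69611464-69611713, minus strand, the 250 bases before the start site. Akr1c6 is chr13:4434093-4434292, plus strand, positions -250 to -51 from the start site.
Srd5a1: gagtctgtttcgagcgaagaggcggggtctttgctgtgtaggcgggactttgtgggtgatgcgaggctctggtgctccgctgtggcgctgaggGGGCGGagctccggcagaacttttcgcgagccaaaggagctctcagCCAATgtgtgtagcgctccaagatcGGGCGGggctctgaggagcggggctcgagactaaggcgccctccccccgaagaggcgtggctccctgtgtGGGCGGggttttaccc
Akr1c6: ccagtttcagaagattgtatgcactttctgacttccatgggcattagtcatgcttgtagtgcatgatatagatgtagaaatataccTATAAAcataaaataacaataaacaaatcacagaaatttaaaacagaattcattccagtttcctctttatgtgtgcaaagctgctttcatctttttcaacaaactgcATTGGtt
The 250 bases of Srd5a1 had 64.8% G and C and 20 CpG dinucleotides, against 34.0% and 0 in the same window of Akr1c6. The median of all promoters was 52.4%. The capitals in Srd5a1 are GC boxes (GGGCGG) at -157, -86 and -16 and a CCAAT box at -111. Those in Akr1c6 are a TATA box (TATAAA) at -164 and a CCAAT box, read on the other strand, at -57. Both strands were searched in the 250 bases of each RefSeq promoter, and 8 of the 10 genes, all but Hsd17b2 and Cyp17a1, matched the table, with 9 windows. A GC box was present in the 3 windows of Srd5a1, Srd5a2 and Srd5a3 and in 0 of the other 6, and 32.7% of all promoters held one. CCAAT was present in 5 of 9 windows (33.8% of all promoters) and TATAAA in 1 of 9 (12.4%). Hsd3b3, the only gene with more than 1 window, had CCAAT in both of its windows, which are nearly the same in sequence. The motifs of STAT5 (TTCNNNGAA), of HNF4 (CAAAGTCCA) and of the NR5A receptors (TCAAGGTCA) were in 0 of 9 windows and in 7.02%, 0.384% and 0.387% of all promoters. These matches describe letters, not bound sites.

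The reads behind Srd5a1 came to about 573 to 868 in KO libraries and 123 to 240 in WT libraries, taking the longest transcript and the estimated depth. Of its distinct stretches of 50 bases 15.1% also occur in Gm17108, a transcript annotated inside it on the same strand, so reads there could be counted for either. Gm17108 itself was at 3.30, 2.10, 2.58 and 2.15 FPKM in KO 1 to KO 4 and at 1.87, 1.38, 0.620 and 2.03 FPKM in WT 1 to WT 4. Nsun2, an RNA methyltransferase gene whose annotation spans Srd5a1 on the opposite strand, shares 0 exonic bases with it. Nsun2 was at 13.7, 7.41, 19.8 and 15.9 FPKM in KO 1 to KO 4 and at 9.78, 7.90, 11.9 and 13.4 FPKM in WT 1 to WT 4, with overlapping groups.

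The other genes of the Srd5a family were low. Srd5a2, the type 2 isoenzyme known from prostate and other androgen target tissues, was at 0.684, 0.488 and 0.399 FPKM in KO 1 to KO 3 and listed at 0 in KO 4. In WT it was listed at 0 in WT 1 to WT 3 and at 2.51 FPKM in WT 4, so its highest value of all was in a WT library, and it did not reach the mean of 1 FPKM needed for testing. Srd5a3, which reduces polyprenol to dolichol for protein glycosylation, was at 0.650, 0.605, 0.534 and 1.85 FPKM in KO 1 to KO 4 and at 0.517, 0.339, 0.396 and 3.75 FPKM in WT 1 to WT 4. In each group it was the library numbered 4 that stood high, and the groups overlapped. The log2 change of Srd5a3 was -0.05 ± 0.41 (SE; limma adjusted p = 0.987).

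Akr1d1 encodes the 5-beta-reductase, which acts on the same double bond of steroid hormones and bile acid precursors as the 5-alpha-reductases and leaves the opposite configuration. It was at 58.3, 69.6, 49.4 and 71.0 FPKM in KO 1 to KO 4 and at 42.2, 42.9, 44.4 and 51.7 FPKM in WT 1 to WT 4. The log2 change of Akr1d1 was 0.44 ± 0.17 (SE; limma adjusted p = 0.428), and KO 3 lay below WT 4. The ratio of Srd5a1 to Akr1d1 within a library, which no scaling of the libraries can alter, was 0.411, 0.206, 0.382 and 0.206 in KO 1 to KO 4 and 0.123, 0.113, 0.151 and 0.0724 in WT 1 to WT 4. The 2 groups of ratios did not overlap, and Akr1d1 exceeded Srd5a1 in every library. Since Srd5a1 alone already separated the groups, the separation of the ratios is no further evidence.

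**Figure D2:**
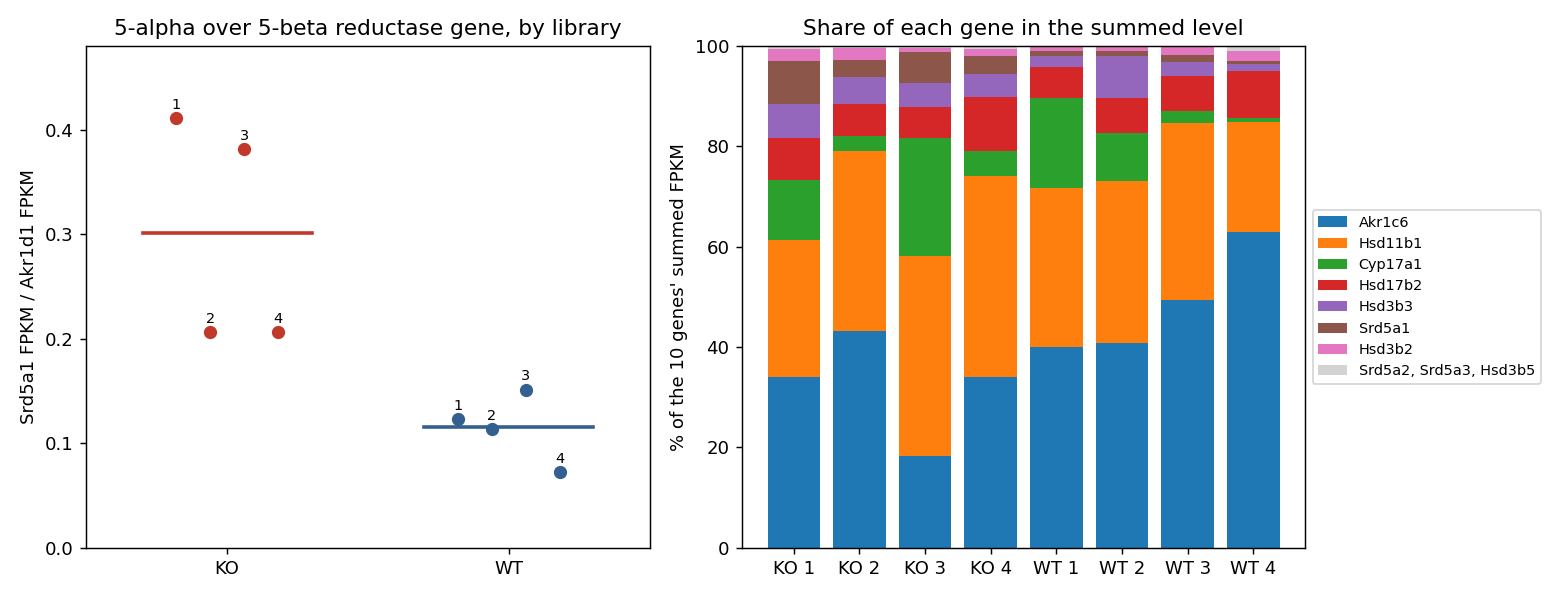
Left, ratio of Srd5a1 to Akr1d1 FPKM in each KO and WT library (points, with replicate numbers) and the group means (horizontal lines), between 0.206 and 0.411 in KO and between 0.0724 and 0.151 in WT. Right, percent of the summed FPKM of the 10 genes held by each gene in each library (stacked bars, with Srd5a2, Srd5a3 and Hsd3b5 joined), where Srd5a1 holds 3.47 to 8.62% in KO and 0.583 to 1.46% in WT.

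Akr1c6 encodes a mouse liver aldo-keto reductase that acts as a 17-beta-hydroxysteroid dehydrogenase on estradiol and testosterone (ENSMUSG00000021210, chromosome 13, 4434306 to 4457877, plus strand, GRCm38). It was at 94.5, 178, 56.3 and 140 FPKM in KO 1 to KO 4 and at 199, 183, 227 and 404 FPKM in WT 1 to WT 4. All KO libraries lay below all WT libraries, although KO 2 came within a few FPKM of WT 2, and 3.18% of all genes tested were lower in KO without overlap. The means were 117 ± 53.3 FPKM in KO and 253 ± 102 FPKM in WT (SD, n = 4 each). The log2 change was -1.15 ± 0.38 (SE). At a limma adjusted p of 0.290 Akr1c6 was not called, and its unadjusted p of 0.0123 was under 0.05, as were those of 9.81% of all genes tested. The change was -0.91 without WT 4, which held the highest value, and -0.85 without KO 3, which held the lowest.

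Among other aldo-keto reductases, a list of further Akr1c genes and Akr1d1 had 0 of 6 tested past the threshold in either direction, against 0.763% of all genes. The median log2 change of this list was -0.15, beside -0.03 for all genes tested, with 1 positive and 5 negative. Akr1b7, an aldo-keto reductase gene outside the list, was called higher in KO (log2 change 1.64 ± 0.27 SE, limma adjusted p = 0.0297). Akr1c14, a 3-alpha-hydroxysteroid dehydrogenase, was at 36.8, 66.8, 36.1 and 60.4 FPKM in KO 1 to KO 4 and at 49.97, 37.7, 44.5 and 68.1 FPKM in WT 1 to WT 4, with overlapping groups. Akr1c18 and Akr1c21 were at 0.25 FPKM or less in every library. Of the 50-base stretches of Akr1c6 1.38% occur in another gene, Akr1c20, of the same cluster.

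Hsd11b1 encodes the 11-beta-hydroxysteroid dehydrogenase that regenerates active corticosterone in the liver (ENSMUSG00000016194, chromosome 1, 193221634 to 193264075, minus strand, GRCm38). It was at 76.2, 149, 122 and 165 FPKM in KO 1 to KO 4 and at 156, 145, 163 and 142 FPKM in WT 1 to WT 4. The WT values lay close together (SD 6.46% of the mean), the KO values spread around them, and the highest value of all was in KO 4. The log2 change of Hsd11b1 was -0.30 ± 0.24 (SE; limma adjusted p = 0.806). H6pd, which supplies NADPH to this enzyme in the endoplasmic reticulum, was at 40.6, 63.1, 51.3 and 63.4 FPKM in KO 1 to KO 4 and at 41.8, 39.6, 36.9 and 65.0 FPKM in WT 1 to WT 4. Hsd11b2, the opposing dehydrogenase of kidney, was at 0.18 FPKM or less in every library. Of 8 tested partners of Hsd11b1 and glucocorticoid receptor targets 0 passed the threshold (median log2 change 0.21, 6 positive and 2 negative). The smallest p was that of Fkbp5, a chaperone gene induced by glucocorticoids, at 11.2, 24.4, 25.1 and 24.3 FPKM in KO 1 to KO 4 and at 13.1, 12.7, 12.6 and 8.26 FPKM in WT 1 to WT 4 (limma adjusted p = 0.369). In KO 2, KO 3 and KO 4 Fkbp5 stood above all WT libraries, and in KO 1 it did not.

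Hsd3b2, Hsd3b3 and Hsd3b5 belong to the 3-beta-hydroxysteroid dehydrogenase cluster of chromosome 3 (GRCm38, minus strand, 98709255 to 98724543, 98741523 to 98763127 and 98618634 to 98630252). The family forms the keto group and isomerizes the double bond of steroid hormones, and mouse Hsd3b5 acts as a ketosteroid reductase instead. The first 90 coding bases are printed to show how alike the genes are, because reads that fit several copies can be split between them. Capitals mark bases that differ from Hsd3b3 (GENCODE M21 transcripts, GRCm38, 5′ to 3′).
Hsd3b3: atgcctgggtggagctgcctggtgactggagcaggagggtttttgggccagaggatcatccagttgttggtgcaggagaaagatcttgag
Hsd3b2: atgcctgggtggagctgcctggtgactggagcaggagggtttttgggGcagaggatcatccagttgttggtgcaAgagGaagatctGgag
Hsd3b5: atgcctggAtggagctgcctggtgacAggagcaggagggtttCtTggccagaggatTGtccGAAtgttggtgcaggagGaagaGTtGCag
Over these 90 bases Hsd3b2 differed from Hsd3b3 at 4 positions and Hsd3b5 at 14. Over the 1119 coding bases, aligned without gaps, identity to Hsd3b3 was 95.1% for Hsd3b2 and 79.5% for Hsd3b5. Of their 50-base stretches 26.9% in Hsd3b2, 8.73% in Hsd3b3 and 21.2% in Hsd3b5 also occur in another gene, on either strand. How reads there were counted is not given, so the size of the uncertainty in single values of these genes is not known. The annotation of Zfp697 on the opposite strand overlaps exons of Hsd3b2 and Hsd3b3, and Zfp697 was at 0.0524 FPKM or less in every library.

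Hsd3b3 was at 18.7, 21.8, 14.9 and 18.8 FPKM in KO 1 to KO 4 and at 10.6, 37.3, 12.7 and 8.11 FPKM in WT 1 to WT 4. Apart from WT 2 the WT libraries lay below all KO libraries, and WT 2 lay above all of them. The log2 change of Hsd3b3 was 0.34 ± 0.40 (SE; limma adjusted p = 0.881), and 0.78 without WT 2 (limma adjusted p = 0.245). Hsd3b2 was at 6.56, 9.91, 2.75 and 5.93 FPKM in KO 1 to KO 4 and at 4.22, 4.26, 7.42 and 13.5 FPKM in WT 1 to WT 4. The groups of Hsd3b2 overlapped fully within the WT range except for KO 3 (log2 change -0.16 ± 0.40 SE, limma adjusted p = 0.956), and the sign turned without WT 4 (0.15) or KO 3 (0.12). The ratio of Hsd3b3 to Hsd3b2 ran from 2.20 to 5.44 over the KO libraries and from 0.599 to 8.75 over the WT libraries, so their balance varied more within WT.

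Hsd3b5 was at 0.277, 0.481, 0.0477 and 0.858 FPKM in KO 1 to KO 4. In WT it was listed at 0 in WT 1 and WT 2 and at 0.141 and 0.0132 FPKM in WT 3 and WT 4. The value of WT 4 is below the 0.0521 FPKM that 1 read would give over its transcript of 1549 bases at the estimated depth. The KO values of Hsd3b5 overlapped with those of WT through KO 3, the gene was not tested, and its levels are far under those of Hsd3b3 in the same libraries. Of 5 other genes of the family 2 were tested and 0 passed (median log2 change -0.51). Hsd3b7, a bile acid synthesis enzyme, was at 51.3, 77.3, 31.2 and 86.8 FPKM in KO 1 to KO 4 and at 51.8, 56.0, 67.3 and 211 FPKM in WT 1 to WT 4. Nsdhl, an enzyme of cholesterol synthesis, had the smallest p of these (log2 change -0.55 ± 0.27 SE, limma adjusted p = 0.577).

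Hsd17b2 encodes the enzyme that oxidizes estradiol and testosterone to the less active keto forms (ENSMUSG00000031844, chromosome 8, 117701904 to 117759027, plus strand, GRCm38). It was at 23.6, 26.4, 19.0 and 44.2 FPKM in KO 1 to KO 4 and at 30.7, 31.0, 31.9 and 60.9 FPKM in WT 1 to WT 4. In KO 1, KO 2 and KO 3 the values lay below all WT libraries and KO 4 lay above 3 of them. The library numbered 4 was again the highest of each group. The log2 change of Hsd17b2 was -0.44 ± 0.30 (SE; limma adjusted p = 0.749). Of 7 other tested genes named for this activity 0 passed, with a median log2 change of 0.01, 4 positive and 3 negative. Hsd17b13, a lipid droplet protein of hepatocytes, had the smallest p among them, at 119, 208, 257 and 170 FPKM in KO 1 to KO 4 and at 128, 54.2, 89.3 and 51.5 FPKM in WT 1 to WT 4 (log2 change 1.26 ± 0.34 SE, limma adjusted p = 0.166), with KO 1 below WT 1.

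Cyp17a1 encodes the 17-alpha-hydroxylase that is required for glucocorticoid synthesis in humans and for sex steroids (ENSMUSG00000003555, chromosome 19, 46667165 to 46673172, minus strand, GRCm38). It was at 32.9, 12.3, 72.0 and 20.8 FPKM in KO 1 to KO 4 and at 89.7, 44.0, 11.02 and 4.63 FPKM in WT 1 to WT 4. The highest and the lowest value of all were WT libraries, 19.4 times apart, and the KO values lay inside that range. The residual SD of Cyp17a1 on the log2 scale was 1.48, at percentile 99.6 of all genes tested, while that of Srd5a1 was 0.31, at percentile 42.6. The log2 change was 0.35 ± 0.84 (SE; limma adjusted p = 0.955), and it turned to -0.33 without WT 4 and to -0.10 without KO 3. None of its 50-base stretches occurs in another annotated gene. Of 5 tested redox partners of steroid P450 enzymes 0 passed (median log2 change -0.10), and the smallest p was that of Cyb5r3, a cytochrome b5 reductase gene, at 129 ± 28.6 FPKM in KO and 94.6 ± 21.2 FPKM in WT (SD, n = 4 each; limma adjusted p = 0.592).

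The order of the levels differed in detail between the groups. In KO, by mean FPKM, it ran from Hsd11b1 (128) over Akr1c6 (117), Cyp17a1 (34.5), Hsd17b2 (28.3), Hsd3b3 (18.6), Srd5a1 (17.9) and Hsd3b2 (6.29) down to Srd5a3 (0.910). In WT it ran from Akr1c6 (253) over Hsd11b1 (152), Hsd17b2 (38.6), Cyp17a1 (37.3), Hsd3b3 (17.2), Hsd3b2 (7.36) and Srd5a1 (5.13) down to Srd5a3 (1.25). Hsd11b1 exceeded Akr1c6 in 2 of 4 KO libraries, so this pair had no settled order in KO, whereas Akr1c6 exceeded Hsd11b1 in 4 of 4 WT libraries. Srd5a1 exceeded Hsd3b2 in 4 of 4 KO libraries, and Hsd3b2 exceeded Srd5a1 in 2 of 4 WT libraries. Cyp17a1 and Hsd17b2 crossed in both groups. The summed FPKM of the 10 genes was 278, 413, 307 and 413 in KO 1 to KO 4 and 496, 451, 460 and 643 in WT 1 to WT 4, and 58.1 to 79.1% of it in KO and 71.6 to 84.9% in WT was Akr1c6 and Hsd11b1. Of the 8 genes with a mean of at least 1 FPKM, 3 had a positive and 5 a negative log2 change, with a median of -0.11. Of 11266 genes tested 45.5% had a positive change.

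WT 4 stood apart from the other WT libraries in many of these genes. It held the highest value of all 8 libraries for Akr1c6, Hsd17b2, Hsd3b2, Srd5a2 and Srd5a3, and the lowest for Cyp17a1, Hsd3b3 and Srd5a1. Without WT 4 the log2 change of Srd5a1 was 1.505 (limma adjusted p = 0.0273), and 0 of the 10 genes were called lower.

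Beyond the 10 genes, enzymes that hydroxylate or conjugate steroids fell in 1 of 12 cases, and 0 rose (median log2 change -0.39, 3 positive and 9 negative, against 0.355% of all genes called lower). The gene that fell was Cyp3a11, a steroid 6-beta-hydroxylase and drug-metabolizing P450, at 163, 109, 109 and 84.8 FPKM in KO 1 to KO 4 and at 318, 250, 325 and 374 FPKM in WT 1 to WT 4 (log2 change -1.46 ± 0.23 SE, limma adjusted p = 0.0217). That call was kept without KO 1, KO 2 or WT 2 and lost in each of the other 5 fits that left out a library, with a limma adjusted p up to 0.0786. Sult1e1, the estrogen sulfotransferase, was at 0.489, 2.54, 5.41 and 6.04 FPKM in KO 1 to KO 4, and in WT it was listed at 0 in WT 1 and at 0.299, 0.233 and 0.196 FPKM in WT 2 to WT 4 (limma adjusted p = 0.140). Cyp7b1, an oxysterol and steroid hydroxylase, was at 1.38, 0.961, 0.506 and 1.02 FPKM in KO 1 to KO 4 and at 1.498, 1.45, 2.57 and 4.95 FPKM in WT 1 to WT 4 (limma adjusted p = 0.389). The sulfotransferase gene Sult2a8 was at 13.3, 49.97, 5.71 and 19.9 FPKM in KO 1 to KO 4 and at 71.5, 53.0, 112 and 114 FPKM in WT 1 to WT 4 (log2 change -2.24 ± 0.54 SE, limma adjusted p = 0.128). None of Sult1e1, Cyp7b1 and Sult2a8 passed. Sult1e1 was higher in KO without overlap, as were 3.05% of all genes tested. Cyp7b1 and Sult2a8 were lower without overlap, as were 3.18%. These 3 were singled out after their values were seen.

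**Figure D3:**
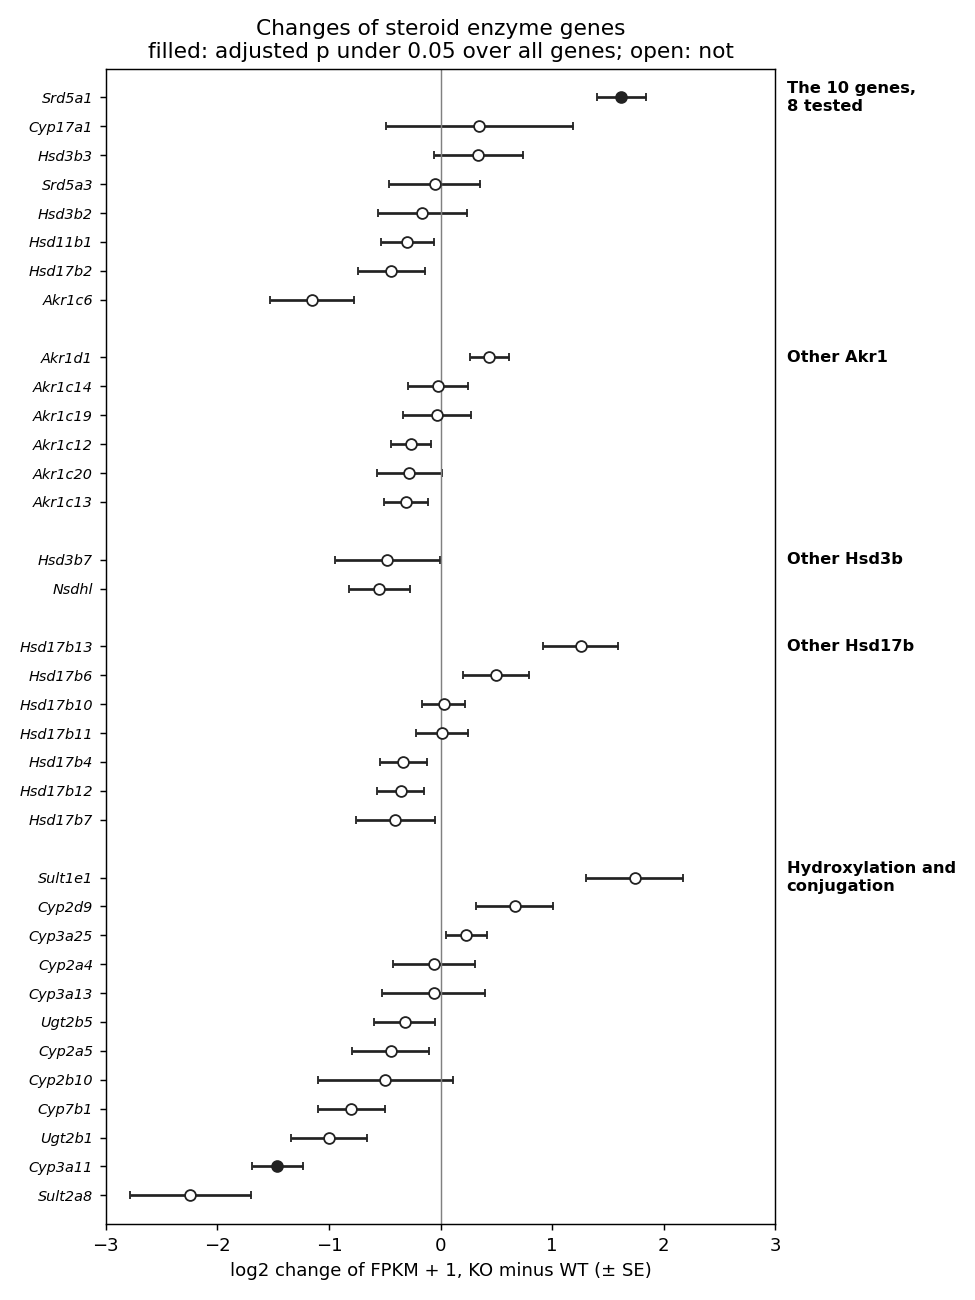
Log2 change of FPKM + 1, KO minus WT, with SE as error bars (n = 4 per group), for the 8 tested genes among the 10 and for 4 further lists of steroid enzyme genes. Filled points passed an adjusted p of 0.05 over all genes tested. They are Srd5a1 at 1.62 and Cyp3a11 at -1.46, and all other points are open.

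In the growth hormone axis 1 of 12 fell and 0 rose, against 0.355% of all genes called lower. The median log2 change was -0.52 with 10 of 12 negative, beside -0.03 and 6137 negative of the 11266 genes tested. This was the prolactin receptor gene Prlr, at 23.7, 25.7, 13.5 and 24.6 FPKM in KO 1 to KO 4 and at 55.4, 46.8, 50.9 and 67.8 FPKM in WT 1 to WT 4 (log2 change -1.32 ± 0.23 SE, limma adjusted p = 0.0392), whose call was kept without KO 2 and lost without any other single library, with a limma adjusted p up to 0.119.

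Sex-biased liver genes other than the 10 were listed as a setting for Hsd3b5. In this and the lists that follow, the shares of all genes called are 0.408% higher and 0.355% lower. Of 11 tested male-biased genes 1 rose and 1 fell (median log2 change -0.51), namely Mup20, a urinary pheromone protein (10.4 ± 2.60 FPKM in KO and 1.65 ± 0.324 FPKM in WT, SD, n = 4 each, limma adjusted p = 0.00295), and Cyp2u1, a P450 gene (0.275 ± 0.185 FPKM in KO and 1.76 ± 0.381 FPKM in WT, limma adjusted p = 0.0302). The call of Cyp2u1 was kept in 0 of the 4 fits without a library in which it passed the minimum level, all of them without a KO library. Cyp4a12a, a male-specific P450 gene, was at 0.28 FPKM or less in every library. Of 20 female-biased genes 2 fell and 0 rose, against 0.355% of all genes called lower (median log2 change -1.56, 16 of 20 negative, beside 6137 of 11266), Prlr and Fmo2, a flavin monooxygenase gene (1.56 ± 0.409 FPKM in KO and 6.84 ± 2.70 FPKM in WT, limma adjusted p = 0.0423). The call of Fmo2 was kept without KO 2 or WT 1 and lost without any other single library (limma adjusted p up to 0.125). Of 9 tested pericentral hepatocyte genes 2 fell, against 0.355% of all genes, namely Tbx3 and Oat (median log2 change -1.05, limma adjusted p = 0.00649 and 0.0162, and for Oat lost without KO 3 or KO 4, up to 0.0586). Their list summed to 630, 1268, 363 and 640 FPKM in KO 1 to KO 4 and to 1492, 1665, 1671 and 2443 FPKM in WT 1 to WT 4. Cyp2e1 was the largest part of this sum in every library, at 182 to 777 FPKM in KO and 1013 to 1799 FPKM in WT. Akr1c6 was highest in WT 4 and lowest in KO 3, as was this sum, and the part of zonation in the level of Akr1c6 was not tested. Of 12 periportal genes 1 rose, the aldehyde dehydrogenase gene Aldh1b1 (median log2 change 0.29).

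The genes whose profile over the 8 libraries was most like that of Srd5a1 were Tff3, a trefoil factor gene, Dnase1l3, a secreted nuclease gene, and Aldh1b1. Likeness was the root mean square difference of log2(FPKM + 1) after each gene was centred on its mean over the 8 libraries, taken over 8440 named protein-coding genes, and came to 0.258, 0.286 and 0.315. Tff3 read 3.30, 2.11, 3.82 and 2.03 FPKM in KO 1 to KO 4 and was listed at 0 in all WT libraries, so it was higher in KO 1 and KO 3 than in KO 2 and KO 4, as was Srd5a1. Dnase1l3 was at 4.31, 1.51, 3.30 and 3.43 FPKM in KO 1 to KO 4 and at 0.542, 0.501, 0.818 and 0.584 FPKM in WT 1 to WT 4, lowest of the KO libraries in KO 2. Most like Akr1c6 were Aox3, an aldehyde oxidase gene, Cyp4f14, a P450 gene, and Rdh9, a retinol dehydrogenase gene (0.251, 0.252 and 0.265). Rdh9 was at 6.57, 10.2, 2.26 and 7.36 FPKM in KO 1 to KO 4 and at 13.1, 16.998, 19.1 and 24.9 FPKM in WT 1 to WT 4. Like Akr1c6 it was lowest in KO 3 and highest in WT 4. Since these genes were picked for their likeness, their group differences are no further evidence.

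**Figure D4:**
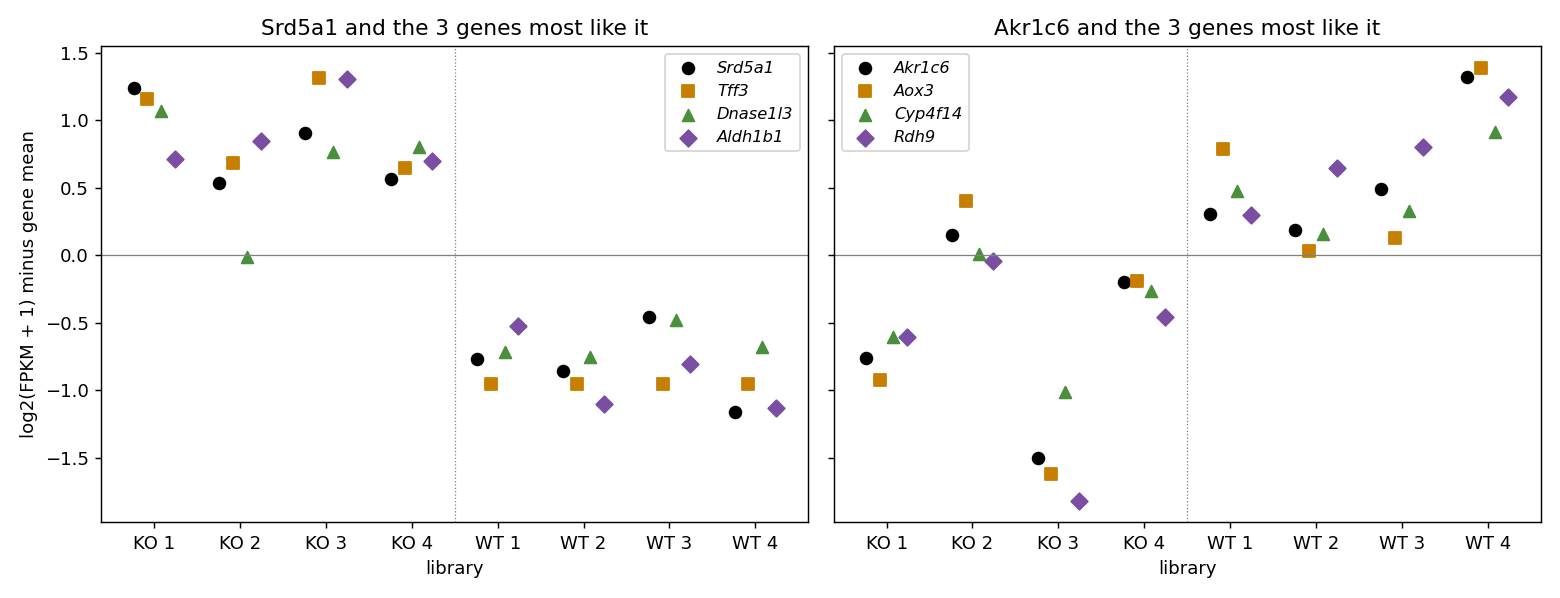
Values of log2(FPKM + 1) minus the mean of each gene over 8 libraries, by library (KO left of the dotted line, WT right), for Srd5a1 (left) and Akr1c6 (right) with the 3 genes most like each. Points are single libraries. Srd5a1 is above its mean in all KO and below it in all WT libraries, while Akr1c6 is highest in WT 4 (404 FPKM) and lowest in KO 3 (56.3 FPKM).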

How the data were processed

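Liver RNA of 8 samples was analysed from 1 table of FPKM values that the authors deposited for 35638 genes. The submitters' processing notes name TopHat, edgeR and mm10. How reads were counted, on which annotation and whether by strand is not given in the sources used here. Columns were assigned by their names. The scale was log2(FPKM + 1), which understates changes of low genes, for the 11266 genes with a mean of at least 1 FPKM, and KO was compared with WT by limma 3.58.1 in R 4.3.3 (intensity trend, two-sided, Benjamini-Hochberg over all genes, threshold 0.05). Of the gene IDs 99.4% matched GENCODE M21 (GRCm38, which is mm10). Promoters came from RefSeq (GRCm38.p6). Depth was estimated from low values of 12059 single-transcript genes of at least 400 bases, of which 56.4 to 60.5% lay within 0.1 of a whole read.

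The 10 genes and the gene lists were chosen with earlier results of these data known. From each list the text names up to 4 genes past the threshold, or the 1 with the smallest p, and any other gene was named after its values were seen. The result of 1 list is not reported here. Plots used Python 3.11.15 with matplotlib 3.10.9. Alternatives were a pseudocount of 0.1 or 5, no filter or a minimum of 5 FPKM, 3 other scalings, limma without trend, array weights, a block for the replicate number, and fits without 1 library each.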

Additional observations from a re-analysis of the deposited data

Results flagged for a closer look

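In groups of 4, a sample was marked where its gap to the nearest other exceeded Dixon's 95% limit, which chance gives in about 1 in 20 groups. Of 48 groups checked 11 had such a sample. WT 4 stood high in Srd5a2 (2.51 FPKM, the others listed at 0), Srd5a3 (3.75 against 0.339 to 0.517 FPKM), Hsd17b2 (60.9 against 30.7 to 31.9 FPKM), Nsdhl (33.8 against 16.7 to 19.0 FPKM) and Oat (149 against 58.8 to 68.3 FPKM), and low in Fkbp5 (8.26 against 12.6 to 13.1 FPKM). KO 4 stood high in Srd5a3 (1.85 against 0.534 to 0.650 FPKM). WT 2 stood high in Hsd3b3 (37.3 against 8.11 to 12.7 FPKM), and WT 3 in Hsd3b5 (0.141 against 0 to 0.0132 FPKM). KO 1 stood low in Fkbp5 (11.2 against 24.3 to 25.1 FPKM), and KO 3 in Prlr (13.5 against 23.7 to 25.7 FPKM).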

How the results depend on the processing

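Srd5a1 was the gene called among the 10 under all 10 settings that kept every library, the replicate block included (limma adjusted p up to 0.0469), and 0 of the 10 were called lower under any setting. The count of the 10 called higher was 0 to 1 when a library was left out, 0 without KO 3, and that of genes called lower among them 0. Over all genes the calls higher and lower were 46 and 40. With a pseudocount of 5 FPKM 27 were higher, with no filter 26 were lower, and with a minimum of 5 FPKM, where fewer genes were tested, 14 were higher and 13 lower. With the replicate block 16 were higher and 8 lower. Same-numbered samples correlated at 0.0964, -0.0668, 0.0151 and 0.25 in their deviations, and differently numbered ones at -0.183 to 0.129. The 0.25 of KO 4 with WT 4 was the highest. The labels do not say that the numbers pair the samples, and what same-numbered samples share was not tested. When a library was left out, 20 to 92 were higher and 14 to 44 lower, the most without KO 2. Scaling to equal sums moved the median of all genes to -0.12, and Srd5a1 stayed at 1.52.

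Signs turned for genes that were never called. The log2 change of Srd5a3 was 0.086 with a pseudocount of 0.1 FPKM and 0.11 with array weights, and ran from -0.23 to 0.035 when a library was left out. In the same fits Hsd3b2 ran from -0.39 to 0.15 and Cyp17a1 from -0.33 to 1.01. Of the genes outside the 10, calls of Cyp3a11, Prlr, Cyp2u1, Fmo2 and Oat were lost with no filter and with the block. Cyp2u1 also lost its call with a pseudocount of 0.1 FPKM (log2 change -2.43, limma adjusted p = 0.0706), and Fmo2 with one of 5 FPKM (-0.82, limma adjusted p = 0.0812). The cause was not tested. The estimated depth limits Srd5a2 and Hsd3b5, at a few reads in most libraries.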
